A study of Mus musculus with 12 samples.

Results

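The 10 genes described here mark neutrophils (S100a8, S100a9, Csf3r, Cxcr2 and Il1b) or dendritic cells (Flt3, Xcr1, Clec9a, Zbtb46 and Siglech). They were chosen by name from the 55413 genes of the deposited count and FPKM tables, and all 10 were found and tested. The tables hold RNA-seq of mouse regulatory T (Treg) cells, which are defined by the factor Foxp3, in 3 groups: tumor pTreg with 3 libraries, tumor tTreg with 5, and as a control total Treg cells of tumor-free lymph nodes with 4. For the tumor groups, tTreg cells of CD45.1 Foxp3YFP-cre mice, in which YFP-Cre is made from the Foxp3 gene, were mixed with T cells lacking Foxp3 (1 part to 10 parts of CD4 and 8 parts of CD8 cells), which came from CD45.2 Foxp3YFP-cre mice. The mixture went into TCRbd-/- hosts, which make no T cells of their own but keep their other leukocytes. Hepa1-6 cells, a mouse hepatoma line, were given 3 days later, and Treg cells were sorted on day 18 from CD4 T cells isolated from the tumors. By the title of the study, pTreg are cells converted from conventional T cells, and the labels do not say which marker was used to sort them. All 12 libraries carry the same genotype label, which names both Foxp3YFP-cre and TCRbd-/- mice. No ages, pooling or separate animals are given for the libraries, so p-values measure the spread between libraries, which may be technical.

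Neutrophils are short-lived phagocytes that enter tissue along chemokine gradients. They store the calcium-binding proteins S100a8 and S100a9, which pair to form calprotectin, respond to the growth factor G-CSF through Csf3r, and leave the marrow by way of the chemokine receptor Cxcr2. Dendritic cells take up antigen and present it to T cells, grow under Flt3 ligand through the receptor Flt3, and, if conventional, carry the transcription factor Zbtb46. The type 1 subset, which cross-presents antigen to CD8 T cells, carries the chemokine receptor Xcr1 and the uptake receptor Clec9a, whereas Siglech marks plasmacytoid dendritic cells, known for type I interferon. Il1b, an inflammatory cytokine, is also made by monocytes and macrophages, and monocytes carry Csf3r too.

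The promoters of the 4 neutrophil markers that were higher in both tumor groups are shown, so that their sequence can be read beside their levels. Each stretch is the 250 bases before the start that RefSeq annotates (build GRCm38.p6), 5′ to 3′ on the strand of the gene. S100a8 is on the plus strand (chr3:90668821-90669070), S100a9 on the minus strand (chr3:90695722-90695971), Il1b on the minus strand (chr2:129371140-129371389) and Csf3r on the plus strand (chr4:126024409-126024658). Capitals mark matches to 3 motifs: TATAAA (the TATA box, gene strand only), GAGGAAG (a core bound by PU.1, both strands) and TTGCNNAA (a core bound by C/EBP factors, both strands).
S100a8: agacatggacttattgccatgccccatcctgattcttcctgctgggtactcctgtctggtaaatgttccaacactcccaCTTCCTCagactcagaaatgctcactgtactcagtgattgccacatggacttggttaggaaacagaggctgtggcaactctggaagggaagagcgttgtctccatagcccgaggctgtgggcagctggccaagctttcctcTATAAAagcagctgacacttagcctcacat
S100a9: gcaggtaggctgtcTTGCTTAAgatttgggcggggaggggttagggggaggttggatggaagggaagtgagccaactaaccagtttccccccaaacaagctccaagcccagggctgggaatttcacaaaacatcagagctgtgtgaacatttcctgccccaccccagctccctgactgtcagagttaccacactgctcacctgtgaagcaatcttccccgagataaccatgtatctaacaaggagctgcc
Il1b: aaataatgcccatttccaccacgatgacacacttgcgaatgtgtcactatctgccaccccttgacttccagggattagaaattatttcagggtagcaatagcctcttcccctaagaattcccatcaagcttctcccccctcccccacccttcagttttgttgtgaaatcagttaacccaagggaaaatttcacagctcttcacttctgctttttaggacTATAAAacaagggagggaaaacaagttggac
Csf3r: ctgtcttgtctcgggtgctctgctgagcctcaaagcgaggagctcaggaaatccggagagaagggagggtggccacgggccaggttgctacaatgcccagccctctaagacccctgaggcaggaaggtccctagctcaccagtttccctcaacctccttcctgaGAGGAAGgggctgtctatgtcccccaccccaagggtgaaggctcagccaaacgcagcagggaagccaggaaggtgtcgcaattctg
TATAAA began 30 bases before the start of S100a8 and 31 bases before that of Il1b, and 7.59% of 32851 promoter windows of this length hold it. The PU.1 core lay 171 bases before the S100a8 start, on the reverse strand, and 86 bases before the Csf3r start, and 10.6% of windows hold it. The C/EBP core began 236 bases before the S100a9 start, and 9.56% of windows hold it. The matches did not overlap each other, and a match describes the letters only. Among the markers not shown, Siglech, lower in both tumor groups, held the C/EBP core 169 bases before its start, on the reverse strand. Xcr1, Clec9a and Zbtb46, which were higher in both tumor groups, held none of the 3 motifs, nor did Cxcr2 and Flt3. S100a8 and S100a9 are neighbours on chromosome 3 (90668978 to 90670035 and 90692632 to 90695721 in GENCODE vM21), 22.6 kb apart and on opposite strands. The S100a8, Csf3r, Cxcr2 and Siglech windows reach into the longer genes that GENCODE annotates. The Zbtb46 window (chr2:181424389-181424638, minus strand) lies wholly inside the GENCODE gene (181387762 to 181459426). For Zbtb46 the bases before the start of the GENCODE gene were thus not searched.

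Library totals were 17964262 to 18180959 counts in tumor pTreg, 18107272 to 18510923 in tumor tTreg and 14573864 to 17323894 in lymph node Treg. Markers of other cell types were counted beside those of Treg cells. Foxp3 averaged 20.3 ± 0.583 CPM (counts scaled to library totals) in tumor pTreg, 8.74 ± 0.478 in tumor tTreg and 441 ± 11.1 in lymph node Treg. The 14 pan-T genes summed to 1223 to 1249 CPM in tumor pTreg, 121 to 128 in tumor tTreg and 5653 to 5816 in lymph node Treg. The 14 macrophage and monocyte markers summed to 5066 to 5090, 5028 to 5291 and 70.1 to 75.4 CPM in the same order, and the 6 hepatoma markers to 4863 to 5219, 7137 to 7459 and 7.26 to 9.53 CPM. In such bulk samples fewer cells of a type and less RNA per cell cannot be told apart.

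Against lymph node Treg, 9 of the 10 markers were called in tumor pTreg by edgeR's quasi-likelihood test (Benjamini-Hochberg adjusted p below 0.05 over all genes), 7 of them higher and 2 lower. In tumor tTreg 8 were called, 7 higher and 1 lower. Of all 15705 genes tested, 87.5% were called in tumor pTreg (47.6% higher, 39.8% lower) and 90.3% in tumor tTreg (48.1% higher, 42.3% lower), so the number of calls by itself is no result about the markers. The median log2 fold change of the 5 neutrophil markers was 3.38 in tumor pTreg and 3.34 for tumor tTreg, and that of the 5 dendritic cell markers 1.42 and 0.60, where all genes had medians of 0.12 and 0.10. S100a8, S100a9, Il1b and Clec9a had 18, 32, 53 and 16 counts over the lymph node libraries. They passed the filter on low counts only through the tumor groups, so their higher direction was largely fixed in advance. The neutrophil medians are the values of S100a8 and S100a9 and share this limit. These calls held in all 21 alternatives, among them a fit without that filter. Both comparisons use the same lymph node libraries. In level, Il1b averaged 189 CPM in tumor pTreg and 234 for tumor tTreg, Csf3r 31.5 and 29.7 CPM, and each of the other 8 less than 10 CPM in any group.

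**Figure D1:**
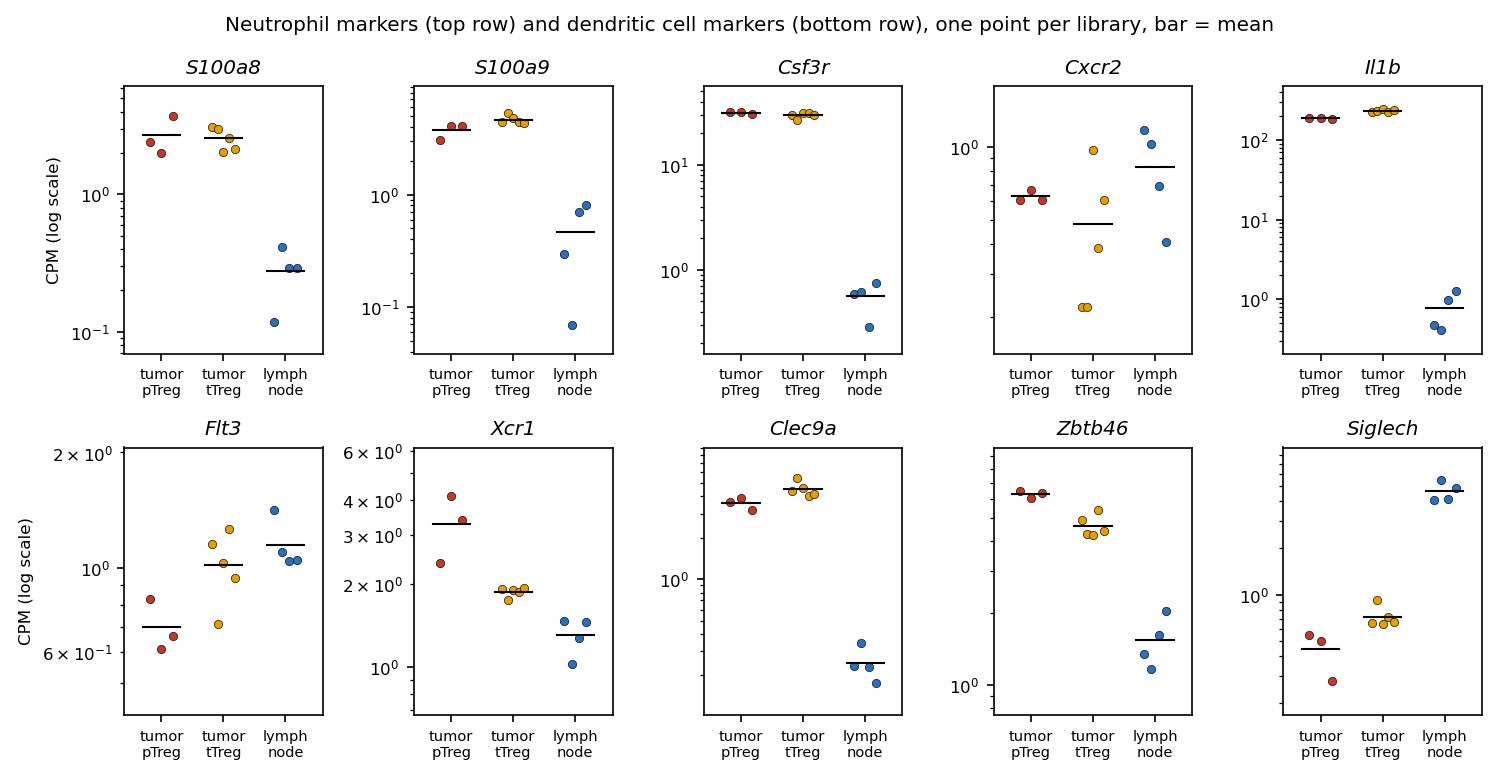
CPM of each marker gene (log axis, a separate scale per panel) in tumor pTreg, tumor tTreg and lymph node Treg, with 1 point per library and a bar at the group mean. The tumor pTreg libraries have at least 184 CPM of Il1b and the lymph node libraries at most 1.28, Cxcr2 overlaps between all groups, and Siglech is highest in lymph node Treg.

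The calprotectin subunits were low but higher in both tumor groups. S100a8 had 44, 36 and 67 counts in the tumor pTreg libraries, 57, 55, 38, 47 and 39 in tumor tTreg, and 2, 6, 5 and 5 in lymph node Treg. Every tumor library lay above every lymph node library, and the tumor groups overlapped. The level was 2.71 ± 0.887 CPM in tumor pTreg (SD, n = 3), 2.58 ± 0.483 in tumor tTreg (n = 5) and 0.277 ± 0.121 in lymph node Treg (n = 4). Against lymph node Treg the log2 fold change was 3.38 ± 0.325 (standard error) in tumor pTreg (adjusted p = 1.3e-10) and 3.31 ± 0.302 in tumor tTreg (adjusted p = 3.74e-11). S100a8 passed the filter on low counts only through the tumor groups, so this direction was largely fixed in advance.

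S100a9 had 56, 73 and 73 counts in the tumor pTreg libraries, 80, 97, 89, 80 and 78 in tumor tTreg, and 5, 1, 12 and 14 in lymph node Treg. All tumor tTreg libraries were above all tumor pTreg libraries, and both groups were above lymph node Treg. The log2 fold change was 3.03 ± 0.272 in tumor pTreg (adjusted p = 2.91e-11) and 3.34 ± 0.238 in tumor tTreg (adjusted p = 1.45e-13). S100a9 likewise passed the filter on low counts only through the tumor groups, which largely fixed this direction. Per length, S100a9 reached 18.3 ± 2.75 FPKM in tumor pTreg and 23.4 ± 2.57 FPKM for tumor tTreg, beside 15.3 ± 5.32 and 14.9 ± 2.32 FPKM of S100a8. The FPKM ratio of S100a9 to S100a8 was 1.28 ± 0.442 in tumor pTreg, 1.60 ± 0.294 in tumor tTreg and 1.71 ± 1.05 in lymph node Treg. The ranges overlapped (0.952 to 1.79, 1.23 to 2.02, 0.148 to 2.43), and the lymph node ratio rests on 1 to 14 counts a gene.

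Il1b was the most abundant marker in the tumor groups. Il1b had 3481, 3440 and 3330 counts in the tumor pTreg libraries, 4134, 4211, 4575, 4159 and 4348 in tumor tTreg, and 8, 6, 17 and 22 in lymph node Treg. None of the 3 groups overlapped. The log2 fold change against lymph node Treg was 7.97 ± 0.0909 in tumor pTreg (adjusted p = 8.64e-33) and 8.27 ± 0.0840 in tumor tTreg (adjusted p = 2.61e-34). Il1b too passed the filter on low counts only through the tumor groups, which largely fixed this direction. This gene alone held 83.1% of the summed counts of the 5 neutrophil markers in tumor pTreg, 86.2% in tumor tTreg and 27.3% in lymph node Treg. A sum over the 5 is therefore mostly Il1b in the tumor groups. In the same libraries Csf1r, the macrophage growth factor receptor, averaged 893 ± 9.43 CPM in tumor pTreg, 857 ± 19.9 in tumor tTreg and 2.38 ± 0.490 in lymph node Treg, and the part of macrophage RNA in the levels of Il1b and Csf3r was not tested.

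The receptors Csf3r and Cxcr2 behaved differently. Csf3r had 579, 571 and 556 counts in the tumor pTreg libraries, 541, 493, 578, 565 and 543 in tumor tTreg, and 10, 9, 5 and 13 in lymph node Treg. The tumor groups overlapped and lay far above lymph node Treg, with log2 fold changes of 5.90 ± 0.125 in tumor pTreg (adjusted p = 2.61e-26) and 5.81 ± 0.119 in tumor tTreg (adjusted p = 6.27e-27). Per length Csf3r reached 11.4 ± 0.295 FPKM in tumor pTreg and 10.6 ± 0.895 FPKM for tumor tTreg. Cxcr2 had 11, 12 and 11 counts in the tumor pTreg libraries, 4, 4, 18, 7 and 11 in tumor tTreg, and 20, 15, 12 and 7 in lymph node Treg. All 3 groups overlapped. Cxcr2 was not called: its log2 fold change was -0.28 ± 0.406 in tumor pTreg (adjusted p = 0.522) and -0.66 ± 0.373 in tumor tTreg (adjusted p = 0.095). Single libraries decide this for tumor tTreg. Without its replicate 3, which held 18 of the 44 counts of the group, the log2 fold change was -1.09 (adjusted p = 0.00965), and without lymph node replicate 4 it was -0.90 (adjusted p = 0.0265), in a range of adjusted p from 0.00965 to 0.322 over 21 alternatives.

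Neutrophil granule protein genes beyond the 5 markers were mostly near 0. Of 10, only 4 had enough counts to be tested (Mmp9, Lcn2, Mmp8 and Ltf), and these were higher in both tumor groups. Lcn2, Mmp8 and Ltf had 3, 5 and 5 counts over the lymph node libraries and passed the filter on low counts only through the tumor groups. Their direction was thus largely fixed in advance. Without that filter 8 were called in each comparison, beside 15747 of all 27279 genes in tumor pTreg and 16956 in tumor tTreg. By DESeq2 7 were called, beside 14487 and 15652 of 21268 genes. Mmp9, a gelatinase that macrophages also make, stood at 145 ± 2.89 FPKM in tumor pTreg, 143 ± 6.07 in tumor tTreg and 0.925 ± 0.145 in lymph node Treg. Lcn2, an iron-withholding protein that epithelial cells also secrete, stood at 26.3 ± 0.833, 17.9 ± 1.10 and 0.0725 ± 0.0914 FPKM, the last from 3 counts in all. Mmp8, the neutrophil collagenase, stood at 2.497 ± 0.118, 1.91 ± 0.145 and 0.0350 ± 0.010 FPKM. The serine proteases of primary granules were too low to test. Prtn3 had 21 counts over the 3 tumor pTreg libraries, 21 over the 5 tumor tTreg libraries and 1 over the 4 lymph node libraries, Elane 1, 1 and 0, and Ctsg 0, 1 and 0. A count of 0 over a group allows up to 3 counts, or 0.0553 CPM in tumor pTreg and 0.0454 CPM in lymph node Treg, and this covers counting error only.

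Of 12 further neutrophil genes, mostly surface receptors, 8 were tested and all 8 were higher in each tumor group, with median log2 fold changes of 5.62 in tumor pTreg and 5.52 for tumor tTreg. Apart from Il1r2, the tested genes had at most 12 counts over the lymph node libraries and passed the filter on low counts only through the tumor groups. Their direction was therefore largely fixed in advance. Il1r2, a decoy receptor for IL-1 that Treg cells also carry, was at 94.8 ± 2.07 FPKM in tumor pTreg, 102 ± 5.77 in tumor tTreg and 13.9 ± 0.517 in lymph node Treg. The lectin receptor Clec4e was at 15.0 ± 1.07, 21.4 ± 3.46 and 0.0725 ± 0.0419 FPKM, its neighbour Clec4d at 14.9 ± 2.40, 16.4 ± 2.11 and 0.0850 ± 0.0592 FPKM, and Trem1, an activating receptor, at 9.57 ± 1.43, 11.8 ± 1.01 and 0.0575 ± 0.0206 FPKM. Macrophages and monocytes express these 3 as well. Ly6g, by which mouse neutrophils are usually sorted, had 9 counts over the tumor pTreg libraries, 11 over tumor tTreg and 0 over lymph node Treg. Other genes of this list that were not tested were also low: Cxcr1 had 1, 3 and 14 counts in that order, Mrgpra2b 1, 5 and 1, and Ceacam10 2, 6 and 0. Retnlg, with 130, 277 and 5 counts, and Cd177, with 42, 74 and 12, were among the tested genes that were higher in both tumor groups.

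**Figure D2:**
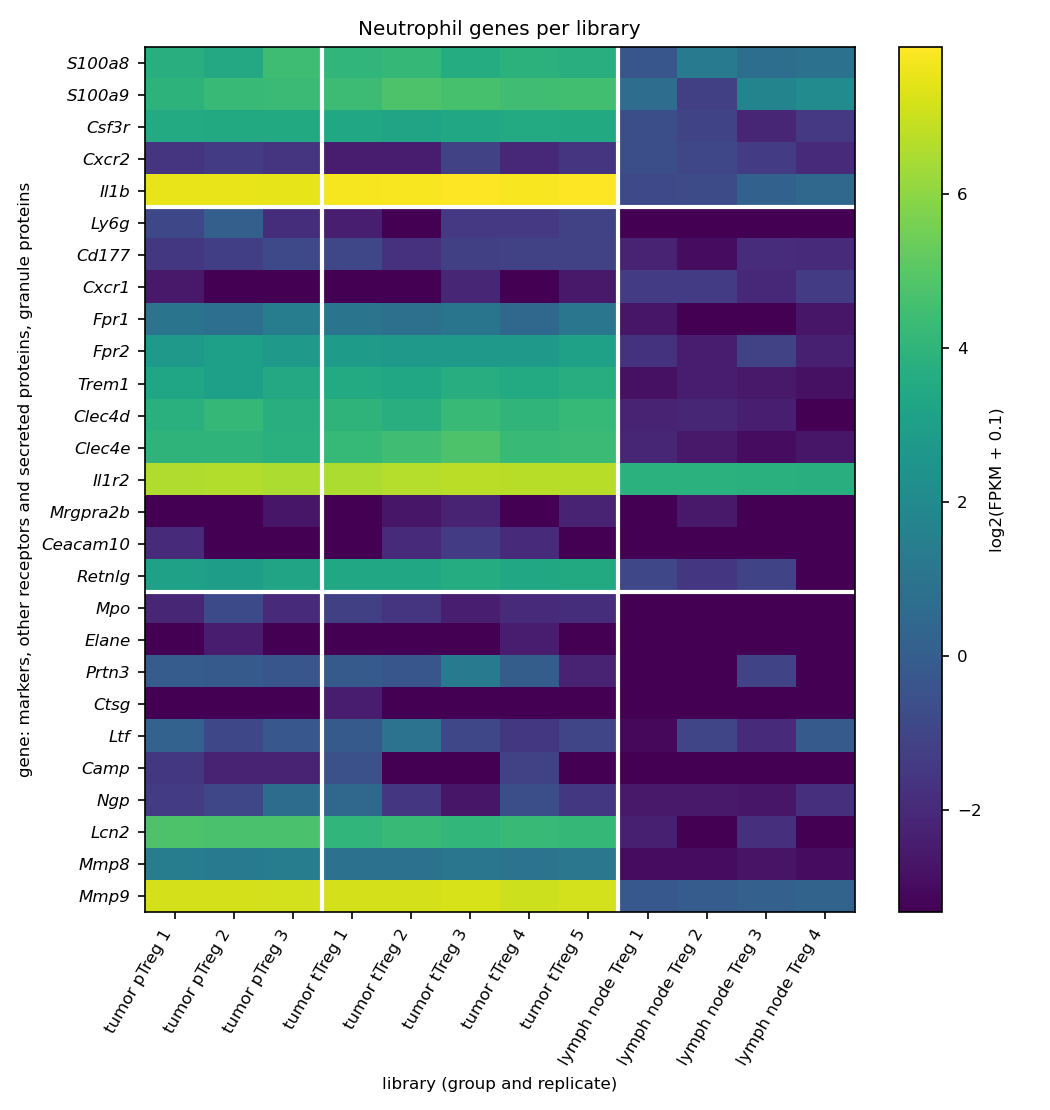
Level of 27 neutrophil genes as log2(FPKM + 0.1), with 1 column per library (tumor pTreg, tumor tTreg, lymph node Treg) and white lines between groups and between gene kinds. Il1b, Il1r2 and Mmp9 are bright in all 8 tumor libraries, whereas Cxcr2, Elane and Ctsg stay dark in all 12.

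Chemokine ligands of Cxcr2 were higher in the tumor groups, whereas Cxcr2 was scarce in every group, lymph node Treg included. Cxcl2 stood at 549 ± 32.1 FPKM in tumor pTreg, 699.7 ± 62.3 in tumor tTreg and 3.64 ± 1.18 in lymph node Treg, while Cxcr2 stood at 0.243 ± 0.0404, 0.176 ± 0.118 and 0.357 ± 0.172 FPKM. Cxcl1 stood at 78.2 ± 3.51, 113 ± 5.54 and 0.0725 ± 0.0950 FPKM, and Cxcl3 at 46.2 ± 2.41, 57.7 ± 3.69 and 0.0625 ± 0.0810 FPKM. Macrophages are a known source of these chemokines. Cxcl5 and Ppbp had no counts in lymph node Treg. With 3 counts over that group as a floor, Cxcl5 was at least 189-fold higher in tumor pTreg and at least 239.6-fold higher in tumor tTreg, and Ppbp at least 183-fold and 173-fold higher. Csf3, which encodes G-CSF, had 6 counts over tumor pTreg, 20 over tumor tTreg and 3 over lymph node Treg, and was not tested. Of the 8 ligand genes of the marker receptors 7 were tested. In tumor pTreg 6 were higher and 1 lower than in lymph node Treg, and for tumor tTreg 5 were higher and 2 lower. Of all genes 47.6% were higher and 39.8% lower in tumor pTreg, and 48.1% and 42.3% in tumor tTreg. Cxcl1, Cxcl3, Cxcl5 and Ppbp passed the filter on low counts only through the tumor groups, and Xcl1 only through tumor pTreg. Where they were higher, the direction was largely fixed in advance, which limits the medians too. The median log2 fold change was 9.53 in tumor pTreg and 9.83 for tumor tTreg, or 7.51 and 7.65 with Cxcl5 and Ppbp at their bounds.

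Genes of the IL-1 system other than Il1b were higher in 7 of 10 cases and lower in 3, in tumor pTreg as for tumor tTreg, with medians of 3.15 and 3.00. Of all genes 47.6% were higher and 39.8% lower in tumor pTreg, and 48.1% and 42.3% in tumor tTreg. Il1a, the other agonist, stood at 137 ± 4.34 FPKM in tumor pTreg, 153 ± 5.07 in tumor tTreg and 0.0375 ± 0.0287 in lymph node Treg. With 4 counts over the lymph node libraries, Il1a passed the filter on low counts only through the tumor groups. Il1rn, the receptor antagonist, stood at 74.1 ± 1.51, 99.5 ± 3.19 and 0.590 ± 0.0864 FPKM. Gsdmd, whose protein forms the pore through which IL-1 leaves the cell, was lower in both, with log2 fold changes of -0.32 in tumor pTreg (adjusted p = 4.44e-06) and -0.37 for tumor tTreg (adjusted p = 3.83e-08).

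**Figure D3:**
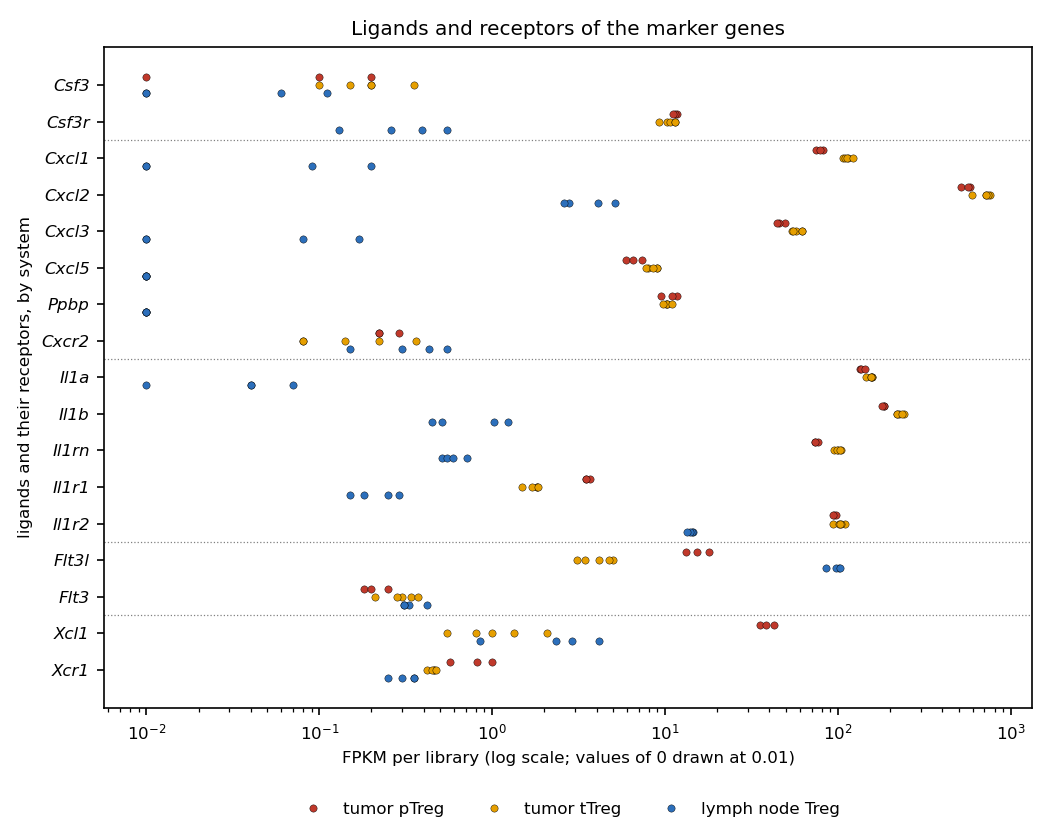
FPKM per library on a log axis for ligands and receptors, grouped as G-CSF, CXCR2 chemokine, IL-1, FLT3 and XCR1 systems, in tumor pTreg, tumor tTreg and lymph node Treg. Cxcl2 is at 513 FPKM or more in the tumor libraries. Cxcr2 is at 0.360 FPKM or less in them and at 0.55 FPKM or less in lymph node Treg, and Xcl1 is highest in tumor pTreg.

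Dendritic cell markers did not move as a set. Clec9a had 66, 70 and 58 counts in the tumor pTreg libraries, 80, 100, 86, 74 and 75 in tumor tTreg, and 4, 5, 4 and 3 in lymph node Treg. Clec9a binds actin exposed by dead cells, and both tumor groups lay above all lymph node libraries. The log2 fold change was 3.95 ± 0.254 in tumor pTreg (adjusted p = 1.57e-14) and 4.28 ± 0.222 in tumor tTreg (adjusted p = 7.67e-17). Clec9a passed the filter on low counts only through the tumor groups, so this direction was largely fixed in advance. Xcr1 had 43, 74 and 61 counts in the tumor pTreg libraries, 35, 32, 35, 34 and 35 in tumor tTreg, and 25, 15, 22 and 25 in lymph node Treg. Xcr1, found on the same subset as Clec9a, thus lay above lymph node Treg by less, with log2 fold changes of 1.42 ± 0.199 in tumor pTreg (adjusted p = 1.98e-07) and 0.60 ± 0.198 in tumor tTreg (adjusted p = 0.00604). The tumor tTreg call of Xcr1 was lost in 2 of 21 alternatives, the limma fits to log2(FPKM + 1), where its adjusted p reached 0.0622.

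Zbtb46 had 117, 109 and 114 counts in the tumor pTreg libraries, 89, 78, 78, 98 and 80 in tumor tTreg, and 23, 17, 28 and 35 in lymph node Treg. The 3 groups did not overlap for this factor of conventional dendritic cells. The log2 fold change against lymph node Treg was 2.11 ± 0.154 in tumor pTreg (adjusted p = 3.11e-13) and 1.66 ± 0.148 in tumor tTreg (adjusted p = 2.07e-11). Flt3 had 15, 11 and 12 counts in the tumor pTreg libraries, 21, 13, 19, 23 and 17 in tumor tTreg, and 24, 16, 18 and 18 in lymph node Treg. The growth factor receptor was low throughout, and its tumor pTreg libraries lay below the lymph node libraries. Its log2 fold change was -0.60 ± 0.285 in tumor pTreg (adjusted p = 0.0491), a call lost in 11 of 21 alternatives (adjusted p from 0.0189 to 0.132), among them leaving out lymph node replicate 1 or 2, tumor pTreg replicate 2 or 3, or tumor tTreg replicate 1, 3, 4 or 5. For tumor tTreg it was -0.08 ± 0.231 (adjusted p = 0.746).

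Siglech, the plasmacytoid marker, was lower in both tumor groups. Siglech had 10, 9 and 5 counts in the tumor pTreg libraries, 12, 17, 12, 13 and 12 in tumor tTreg, and 69, 80, 72 and 84 in lymph node Treg. No tumor library reached a lymph node library. The log2 fold change was -3.26 ± 0.238 in tumor pTreg (adjusted p = 2.88e-13) and -2.57 ± 0.180 in tumor tTreg (adjusted p = 9.18e-14). The 5 B cell markers, of which 4 were called lower in each tumor group, summed to 3.48 to 4.17 CPM in tumor pTreg, 3.06 to 4.05 in tumor tTreg and 11.8 to 13.3 in lymph node Treg, and their part in the Siglech result was not tested. In FPKM, Siglech was first among the 10 markers in lymph node Treg (2.91 ± 0.437), ahead of S100a9 (2.31 ± 1.71), with overlapping spread. In tumor pTreg the mean FPKM ran from Il1b (183 ± 3.14) to Flt3 (0.210 ± 0.0361), and the neighbours Clec9a (2.31 ± 0.329) and Zbtb46 (2.02 ± 0.128) did not differ beyond their spread. Nor did the lowest 3, Siglech (0.257 ± 0.0874), Cxcr2 (0.243 ± 0.0404) and Flt3.

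**Figure D4:**
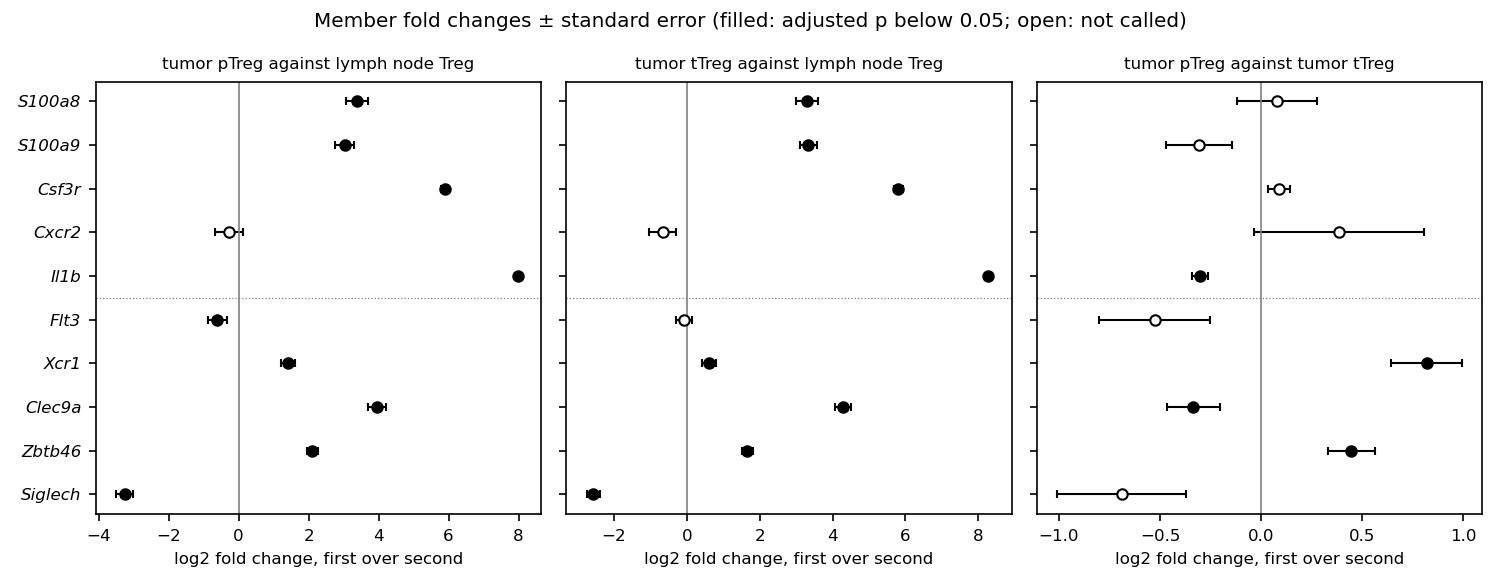
Log2 fold change with standard error of each marker gene in tumor pTreg against lymph node Treg, tumor tTreg against lymph node Treg and tumor pTreg against tumor tTreg (axes differ), filled where the adjusted p was below 0.05. Il1b and Csf3r lie furthest right against lymph node Treg and Siglech furthest left, and between the tumor groups Xcr1 and Zbtb46 lie right of 0 and Il1b and Clec9a left of it.

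Among 10 other type 1 dendritic cell genes 9 were tested. Against lymph node Treg 7 were higher and 1 lower for tumor pTreg, and 8 higher and 1 lower for tumor tTreg, with median log2 fold changes of 3.80 and 3.86. Of all genes 47.6% were higher and 39.8% lower in tumor pTreg, and 48.1% and 42.3% in tumor tTreg. Irf8, a factor of type 1 cells that macrophages also use, stood at 52.3 ± 2.001 FPKM in tumor pTreg, 55.2 ± 2.18 in tumor tTreg and 12.1 ± 0.703 in lymph node Treg. Cd24a stood at 44.4 ± 1.08, 67.3 ± 2.56 and 3.40 ± 0.182 FPKM, and Naaa, a lysosomal amidase, had log2 fold changes of 3.31 and 3.54. Itgae, an integrin chain that Treg cells carry too, was the lower gene, with 12.4 ± 0.167, 5.74 ± 0.155 and 58.5 ± 1.14 FPKM. Of 9 type 2 genes 8 were tested, with 5 higher and 1 lower for tumor pTreg, and 5 higher and 2 lower for tumor tTreg (medians 4.48 and 4.52). The most abundant, Klf4 (3.18 and 3.30), Mgl2 (9.39 and 9.59), Sirpa (7.47 and 7.52) and Clec10a (5.77 and 5.75), are also expressed by macrophages. Some genes of both lists passed the filter on low counts only through the tumor groups, among them Mgl2, with 17 counts over the lymph node libraries. Their higher direction was thus largely fixed in advance.

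Shared dendritic cell genes were higher in 5 of 7 cases in each tumor group, with 1 lower for tumor pTreg and 2 for tumor tTreg (medians 2.56 and 2.14). Beside the counts in this paragraph, 47.6% of all genes were higher and 39.8% lower in tumor pTreg, and 48.1% and 42.3% in tumor tTreg. Listed genes with few counts in lymph node Treg or in the tumor groups passed the filter only through the other groups. Their direction was largely fixed in advance. Itgax, the CD11c integrin chain, had log2 fold changes of 7.93 and 8.08, the cytokine receptor chains Csf2ra 3.72 and 3.95 and Csf2rb 6.53 and 6.75, and Id2, which T cells also use, 2.56 and 2.14. Genes of mature dendritic cells split, with 5 of 10 higher and 3 lower for tumor pTreg, and 6 higher and 4 lower for tumor tTreg (medians 1.49 and 1.65). Cd83 was higher (2.68 and 2.84). Ccr7, the lymph node homing receptor that naive T cells also carry, was lower (-4.11 and -4.64), as were Socs2 (-0.48 and -0.54) and Relb (-0.32 and -0.76). Plasmacytoid genes other than Siglech were lower in 5 of 8 tested cases and higher in 3 (medians -1.43 and -1.33). The lower ones included Irf7 (-0.72 and -1.13) and Pacsin1 (-4.08 and -7.25), and the higher ones Tcf4 (5.27 and 5.48) and Bst2 (1.00 and 1.23), which many cells express. Pacsin1 averaged 4.56 CPM in tumor pTreg, 0.502 in tumor tTreg and 82.9 in lymph node Treg. The pan-T sums had the same order of groups, and their part in the Pacsin1 result was not tested.

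Between the tumor groups, 4 of the 10 markers were called, 2 higher and 2 lower in tumor pTreg, against 52.1% of all genes (26.8% higher, 25.3% lower). The larger direction of that background depends on the scaling: RLE size factors gave 3572 genes higher and 4872 lower, and DESeq2 3282 and 4039, where the values above are 4204 and 3980. The median log2 fold change was 0.08 for the neutrophil markers and -0.33 for the dendritic cell markers, where that of all genes was -0.01. Il1b averaged 189 ± 4.20 CPM in tumor pTreg, lower than the 234 ± 9.0 CPM of tumor tTreg, with a log2 fold change of -0.30 ± 0.0376 (adjusted p = 9.85e-08). Its sign held in all 21 alternatives, but the 3 fits to FPKM did not call it (adjusted p up to 0.371). Per 100 macrophage and monocyte marker counts Il1b stood at 3.72 ± 0.0762 in tumor pTreg, against 4.53 ± 0.120 for tumor tTreg. That difference is thus of the same direction on this scale.

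Xcr1 and Zbtb46 were higher in tumor pTreg, and Clec9a was lower. Xcr1 averaged 3.29 ± 0.880 CPM in tumor pTreg, against 1.87 ± 0.0730 CPM for tumor tTreg (log2 fold change 0.82 ± 0.174, adjusted p = 0.000252), without overlap. Zbtb46 averaged 6.27 ± 0.187 CPM in tumor pTreg, against 4.63 ± 0.489 CPM for tumor tTreg (0.45 ± 0.117, adjusted p = 0.00205). Both calls held in all 21 alternatives. Clec9a averaged 3.58 ± 0.347 CPM in tumor pTreg, against 4.54 ± 0.567 CPM for tumor tTreg (-0.33 ± 0.132, adjusted p = 0.0351). This call was lost in 9 of 21 alternatives (adjusted p from 0.0169 to 0.353), among them leaving out tumor pTreg replicate 1 or 3 or tumor tTreg replicate 2 or 3. The type 1 markers Xcr1 and Clec9a therefore had opposite signs in the same libraries. Pan-T genes were higher in tumor pTreg in 14 of 14 cases, by a median of 3.51 on the log2 scale, and their part in the Xcr1 and Zbtb46 results was not tested.

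The other 6 markers were not called between the tumor groups. The log2 fold change was 0.08 ± 0.196 for S100a8 (adjusted p = 0.764), -0.31 ± 0.163 for S100a9 (adjusted p = 0.117), 0.09 ± 0.0563 for Csf3r (adjusted p = 0.195) and 0.38 ± 0.420 for Cxcr2 (adjusted p = 0.467). For Flt3 it was -0.53 ± 0.274 (adjusted p = 0.112) and for Siglech -0.69 ± 0.320 (adjusted p = 0.0729). S100a9 averaged 3.73 ± 0.561 CPM in tumor pTreg, against 4.64 ± 0.421 CPM for tumor tTreg, and Siglech 0.443 ± 0.146 CPM, against 0.722 ± 0.118 CPM. S100a9 and Siglech were each called in 1 of 21 alternatives, with adjusted p from 0.0492 to 0.691 for S100a9 and from 0.0157 to 0.319 for Siglech.

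Tumor pTreg exceeded tumor tTreg for 2 of the 7 ligand genes tested and was lower for 4 (median log2 fold change -0.29). Of all genes 26.8% were higher and 25.3% lower. Xcl1, the ligand of Xcr1 that activated CD8 T and NK cells release, averaged 8.26 ± 0.713 CPM in tumor pTreg, against 0.240 ± 0.126 CPM for tumor tTreg (log2 fold change 5.07, adjusted p = 9.71e-17). Lymph node Treg had 0.547 ± 0.312 CPM of Xcl1, and the part of the pan-T genes in the Xcl1 result was not tested. Xcl1 passed the filter on low counts only through tumor pTreg, so its higher direction there was largely fixed in advance. Flt3l, the ligand of Flt3, averaged 14.4 ± 1.303 CPM in tumor pTreg, 3.80 ± 0.317 CPM in tumor tTreg and 96.0 ± 3.56 CPM in lymph node Treg, and was higher in tumor pTreg than in tumor tTreg (1.93, adjusted p = 3.58e-17). The pan-T sums had the same order of groups as Flt3l, and their part in the Flt3l result was not tested. The lower ligands were Cxcl1 (-0.46), Cxcl2 (-0.29), Cxcl3 (-0.30) and Cxcl5 (-0.34), and Ppbp was not called (0.08, adjusted p = 0.488). In the IL-1 list 4 genes were higher and 4 lower. Il1rn (-0.43) and Il1a (-0.15) were lower, like Il1b, and Il1r1, the signalling receptor, was higher (1.03).

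In the other lists, 2 of 4 tested granule genes were higher in tumor pTreg than in tumor tTreg, Lcn2 (0.56) and Mmp8 (0.40), and 2 of 8 further neutrophil genes were lower, Clec4e (-0.45) and Trem1 (-0.32). Type 1 dendritic cell genes were higher in 1 and lower in 5 of 9 cases, with Itgae the higher one (1.12) and Cd24a among the lower (-0.60). Type 2 genes were higher in 3 and lower in 3 of 8 cases, shared genes higher in 4 and lower in 3 of 7, mature genes higher in 2 and lower in 5 of 10, and plasmacytoid genes higher in 4 and lower in 3 of 8. The medians of these lists lay between -0.17 and 0.37. Of all genes 52.1% were called between the tumor groups (26.8% higher, 25.3% lower), and the larger direction of that share depends on the scaling. Splits near it are no result about a list. Macrophage and monocyte markers were higher in 4 and lower in 4 of 14 cases (median 0.03), and hepatoma markers lower in 4 of 4 tested (median -0.54). Ms4a2, the only one of 5 mast cell and basophil genes to be tested, averaged 3.95 ± 0.881 CPM in tumor pTreg, against 4.89 ± 0.564 CPM for tumor tTreg (adjusted p = 0.0821), and the other 4 had no counts in tumor pTreg.

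By Pearson correlation of log2 CPM over the 12 libraries, the genes most like Il1b were Foxa1 (0.9996), Esam (0.9994) and Cxcl3 (0.9994), but 2157 genes passed 0.99. Those most like Zbtb46, the dendritic cell marker with the highest mean CPM, were Plac8 (0.989), Id2 (0.986) and Tor1aip2 (0.985), and 0 genes passed 0.99. The libraries share their 3 groups and so the points are not independent.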

How the data were processed

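Values came from a deposited table of expected counts, which the authors gave as whole numbers per gene, and a deposited table of FPKM, which the authors scaled for gene length and depth. Per the submitters' processing notes, STAR 2.7.11a, RSEM 1.3.3, DESeq2 and GRCm38/mm10 were used; the annotation and strand setting are not given in the sources used here. RSEM divides shared reads among genes by a model.

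Counts were tested with edgeR 4.0.16 in R 4.3.3 (TMM factors, filterByExpr, 1 quasi-likelihood fit of all 12 libraries by group, Benjamini-Hochberg adjustment over 15705 genes). The standard error is the log2 fold change over the root of F, and CPM uses library totals. A gene with few lymph node counts passes filterByExpr only through the tumor groups, and one with few tumor counts only through lymph node Treg. For such genes in any list the direction was largely fixed by this filter. Alternatives used limma 3.58.1 and DESeq2 1.42.0. The tests were also run on simulated data in which only a small part of the genes changed. Most genes differ from lymph node Treg here, so that run does not check the scaling. Positions are from GENCODE vM21, and promoters, found for all 10 markers, from RefSeq. The markers and lists were chosen with earlier results of these data known. Text names the markers, all ligands and the 4 genes of each other list with the highest mean FPKM. Ly6g, Cxcr1, Mrgpra2b, Ceacam10, Retnlg, Cd177, Elane, Ctsg, Ltf, Il1r1, Ms4a2 and Csf1r were named after their values were seen. No p is given for sums over markers. Of 145 listed symbols 144 were found, the other being an older name of Jaml. Replicates were not duplicates: their chi-square statistic over its degrees of freedom ran from 1.62 to 3.74 in 19 pairs. This does not show whether they came from separate animals.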

Additional observations from a re-analysis of the deposited data

Results flagged for a closer look

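In 22 checks for a library standing apart (the 10 markers and the S100a9 to S100a8 ratio, in tumor tTreg and lymph node Treg), 3 were met; chance gives about 1 in 20. Siglech was 0.929 CPM in tumor tTreg replicate 2, above the 4 other libraries of its group. Flt3 was 1.41 CPM in lymph node Treg replicate 1, above the other 3, on 24 counts. The FPKM ratio of S100a9 to S100a8 was 0.148 in lymph node Treg replicate 2, below the other 3, on 1 count of S100a9 and 6 of S100a8.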

How the results depend on the processing

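Of the 10 markers, relative to lymph node Treg tumor pTreg had 9 calls and tumor tTreg 8, and leaving out 1 library gave 8 to 9 for both. Between the tumor groups 4 were called, 3 to 4 with 1 library left out, and 2 in the limma fits to log2(FPKM + 1), with and without a filter; the cause was not tested. Same-numbered libraries did not deviate together (correlations of deviations from -0.0189 to 0.0147 over 10 pairs). Deviations within a group may be mostly library noise, so this cannot decide whether the numbers pair samples. With the replicate number as a block, 13602, 14065 and 7495 genes and 8, 8 and 4 markers were called for tumor pTreg against lymph node Treg, tumor tTreg against lymph node Treg and tumor pTreg against tumor tTreg; with 1 library left out the gene numbers ran from 13506 to 13727, 13971 to 14425 and 7151 to 8206. Signs changed only for uncalled values: S100a8 between the tumor groups was -0.00199 with log2(FPKM + 0.1) and -0.22 to 0.26 with 1 library left out, and Flt3 in tumor tTreg relative to lymph node Treg was -0.17 to 0.031 with 1 left out. Per 100 macrophage and monocyte marker counts, the log2 ratio of tumor pTreg to tumor tTreg was -0.23 for the summed neutrophil markers (-0.24 to -0.22 with 1 library left out), -0.18 with FPKM and -0.32 against Csf1r alone. For the dendritic cell markers it was 0.19 (0.14 to 0.21), and 0.10 against Csf1r alone. The S100a9 to S100a8 ratio with 1 library left out was 1.03 to 1.45 in tumor pTreg, 1.496 to 1.69 in tumor tTreg and 1.47 to 2.23 in lymph node Treg. Scaling by library totals alone shifted the median of all genes for tumor pTreg against lymph node Treg by -0.10. Low counts limit Cxcr2, Flt3, Siglech and the lymph node values of S100a8, S100a9 and Clec9a.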
